A study of Homo sapiens with 3 samples.

Results

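Solute carriers are the membrane proteins that move small molecules and ions across the plasma membrane and the membranes of organelles, and 159 genes named as such were followed here in UM-UC-3, an established human bladder cancer line. They were chosen from the 376 genes on the array whose symbol starts with SLC and a digit, using probe sets (groups of short probes for a transcript) annotated to a single gene. Each gene was represented by its brightest probe set on average, and a gene was selected when that probe set read above an intensity of 30 in at least 1 of the 3 arrays. This left 164 genes above the threshold and 212 below it. A fixed set of 10 well known nutrient and stress transporters (SLC7A11, SLC3A2, SLC7A5, SLC38A2, SLC1A4, SLC6A9, SLC2A1, SLC2A3, SLC16A1 and SLC16A3) was left out, 5 of which were above the threshold. The 159 members fell into 47 families by SLC number. By the same intensity rule, 9143 of 19775 genes on the array counted as measured, and these served as the background for every count.

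The groups were UM-UC-3 cells transfected with DANCR siRNA1, with DANCR siRNA2 or with a negative control siRNA, each at 75 nM, with RNA taken after 48 h and hybridised to 1 Affymetrix array per group. DANCR is a long noncoding RNA, and the study asked which genes respond when it is depleted. With 1 array per group no difference has a replicate check, so differences are given as sizes, as log2 ratios, and as counts of members at least 2-fold apart. The intensities that were compared are also those that selected the members, so the values are a description. An intensity depends on the probes as well as on the transcript, so values are set side by side only between arrays, not between genes.

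Carriers are grouped by what they move. Most of the SLC25 family sits in the inner mitochondrial membrane and supplies the matrix with metabolites, nucleotides and phosphate. The SLC35 family brings nucleotide sugars and related donors into the endoplasmic reticulum and Golgi, where glycans are built. SLC30 proteins lower cytosolic zinc by exporting it or loading it into organelles, and SLC39 proteins raise it, while lysosomal carriers such as SLC17A5 return the products of degradation to the cytosol.

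The agents that define the 3 groups were the following 21-base siRNA strands, printed 5′ to 3′ as the labels list them, with the 2 overhanging bases in capitals. The labels do not say which strand is shown, and they give the target positions under a tag that names WDR5.
DANCR siRNA1: gcguacuaacuuguagcaaTT
DANCR siRNA2: gagcuagagcagugacaauTT
Negative control: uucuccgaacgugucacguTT

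The promoters of 4 members are shown because these genes stood at least 2-fold from the control in the same or in opposite directions with both siRNAs, or, for SLC30A1, because the gene is the textbook target of the metal sensor MTF1. Each is the 250 bases before the annotated start on the minus strand, from RefSeq on GRCh38.p14. Capitals mark a match to CACGTG (the E-box bound by TFEB, TFE3, MYC and others), or to TGCACNC or TGCGCNC (short forms of the metal response element), searched on both strands. The windows are chr6:73653993-73654242 for SLC17A5, chr17:73092689-73092938 for SLC39A11, chr2:113756643-113756892 for SLC35F5 and chr1:211579162-211579411 for SLC30A1.
SLC17A5: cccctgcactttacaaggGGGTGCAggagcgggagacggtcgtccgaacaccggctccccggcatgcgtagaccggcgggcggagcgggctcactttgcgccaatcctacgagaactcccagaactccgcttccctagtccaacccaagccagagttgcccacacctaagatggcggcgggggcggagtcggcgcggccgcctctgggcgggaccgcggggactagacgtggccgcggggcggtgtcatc
SLC39A11: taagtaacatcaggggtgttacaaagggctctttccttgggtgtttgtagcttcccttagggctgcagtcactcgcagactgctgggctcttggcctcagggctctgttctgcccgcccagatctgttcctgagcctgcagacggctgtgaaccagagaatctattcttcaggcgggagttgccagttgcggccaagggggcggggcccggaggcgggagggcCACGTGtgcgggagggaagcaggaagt
SLC35F5: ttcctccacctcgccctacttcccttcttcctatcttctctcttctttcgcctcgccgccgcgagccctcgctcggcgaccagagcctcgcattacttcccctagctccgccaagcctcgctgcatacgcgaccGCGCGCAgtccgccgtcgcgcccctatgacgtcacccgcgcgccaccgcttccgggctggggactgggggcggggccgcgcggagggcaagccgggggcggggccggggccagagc
SLC30A1: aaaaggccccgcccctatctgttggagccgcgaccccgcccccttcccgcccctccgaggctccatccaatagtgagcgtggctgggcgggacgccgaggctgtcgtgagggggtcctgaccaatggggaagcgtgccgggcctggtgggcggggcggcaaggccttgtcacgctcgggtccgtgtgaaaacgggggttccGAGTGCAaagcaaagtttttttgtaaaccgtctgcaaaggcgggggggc
In SLC17A5 the match was to TGCACNC, at position -232 from the start, and in SLC30A1 it was to the same motif, at position -49. SLC39A11 held CACGTG at position -27, and SLC35F5 held TGCGCNC at position -116. Among 35116 promoter entries of this length, 6.34% held CACGTG, 9.87% TGCACNC and 16.8% TGCGCNC. Of the members, 134 had promoter entries, 192 in all, and of these 12.5% held CACGTG, 9.90% TGCACNC and 22.9% TGCGCNC. A match to letters in this window is not a measured binding site.

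DANCR itself read 116 with siRNA1, 126 with siRNA2 and 671 with the control siRNA, so 17.3% and 18.8% of the control signal was left. The median over all probe sets was 10.5 in each array. Of the 13 urothelial markers on the array, 2 read above 30. These were KRT18 in every array and GATA3 with siRNA2 only (35.2, against 20.2 in each of the other arrays). The summed intensity of the 13 was 827 with siRNA1, 1157 with siRNA2 and 1438 with the control. KRT18, a simple epithelial keratin, carried most of it, while uroplakins, CDH1, EPCAM, KRT5 and KRT14 stayed below the array median. All 4 mesenchymal markers were above 30 in at least 1 array, FN1 only with the siRNAs (30.2 and 43.9, against 27.0 with the control). Their sums were 4862, 5280 and 5811 in the same order, most of it VIM (4412, 4861 and 5322). VIM and ZEB1 were highest with the control, FN1 and CDH2 with siRNA2. No leukocyte marker (of 5) or erythroid or hepatic marker (of 3) was above 30, and of 4 endothelial markers TIE1 passed in 1 array, at 30.9 with the control. The ratio of 3′ to 5′ ACTB probe sets, a sign of RNA integrity and amplification, was 11.8 with siRNA1, 14.4 with siRNA2 and 11.9 with the control, and that of GAPDH was 1.29, 1.35 and 1.25. The siRNA2 array thus had the highest of both ratios and also the highest median over the members, 92.3 against 75.2 with siRNA1 and 72.5 with the control, and the part of RNA integrity in this was not tested.

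With siRNA1, SLC17A5, SLC35F5 and SLC39A11 were at least 2-fold above the control, and SLC25A40, SLC2A6 and SLC39A8 at least 2-fold below it. These 3 members in each direction are 1.89% of the 159, against 2.41% of all measured genes higher and 2.23% lower. The share of carriers past 2-fold with siRNA1 was thus slightly under that of the array as a whole. The members' median log2 ratio was 0.00, as it was for all measured genes, with 79 members above the control, 62 below and 18 exactly equal.

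With siRNA2, 10 members (6.29%) were at least 2-fold above the control, against 2.65% of all measured genes. They were SLC17A5, SLC18B1, SLC30A1, SLC33A1, SLC33A2, SLC35A3, SLC35D2, SLC39A11, SLC5A3 and SLC66A3, which move sialic acid, polyamines, zinc, acetyl-CoA, nucleotide sugars and inositol among others. SLC1A3 and SLC35F5 (1.26%) were at least 2-fold below, against 1.61% of all measured genes. With the median over a gene's probe sets, 6 members (3.77%) were 2-fold above, against 1.89% of all measured genes. These included SLC38A7, which was not among the 10. The median log2 ratio was 0.14 for the members and 0.03 for all measured genes, with 100 members above the control, 45 below and 14 equal (62.9% above, against 53.5% of all measured genes). By level, the members 2-fold above were 7 of 89 with a mean intensity under 100 (7.87%, against 3.60% of all genes in that range) and 3 of 70 brighter members (4.29%, against 1.93%), while with siRNA1 none of the 70 was past 2-fold.

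Set against each other, siRNA1 gave a lower reading than siRNA2 by at least 2-fold in 10 members (6.29%), compared with 3.04% of all measured genes. These were SLC18B1, SLC19A2, SLC20A2, SLC25A43, SLC2A6, SLC33A2, SLC39A8, SLC39A9, SLC5A3 and SLC7A2. With the median over probe sets the count was 6 (3.77%, against 2.12% of all measured genes). SLC35F5 was the single member at least 2-fold higher with siRNA1 than with siRNA2 (0.629%, against 1.98% of all measured genes). The median log2 ratio of siRNA1 over siRNA2 was -0.11 for the members and 0.00 for all measured genes, and 47 members were higher, 95 lower and 17 equal. Counts by family are to be read against these shares, 49.5% of all measured genes above the control with siRNA1, 53.5% with siRNA2, and 47.8% lower with siRNA1 than with siRNA2.

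Both comparisons with the control use the same control array, so members past a threshold in both are a description and not a pair of independent observations. SLC17A5 and SLC39A11 were at least 2-fold higher with both siRNAs (1.26% of members, 0.930% of measured genes), and no member was 2-fold lower with both (0% of members, 0.361% of measured genes). SLC35F5 was the 1 member that was 2-fold higher with siRNA1 and 2-fold lower with siRNA2, and it was also the only such gene among all 9143 measured (0.0109%). No gene showed the opposite arrangement (0%). At 1.5-fold, 12 members were higher with both (7.55%, against 4.45% of measured genes) and none was lower with both (0%, against 1.63%). Of the 12, 4 (SLC39A11, SLC24A1, SLC12A2-DT and SLC9A3-OT1) were at or under 30 in the control and were selected only through the siRNA arrays in which they were high. Besides the 2 past 2-fold, these 12 were SLC30A1, SLC33A1, SLC35A2, SLC35A3, SLC35D2, SLC38A6, SLC24A1, SLC25A44, SLC12A2-DT and SLC9A3-OT1.

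**Figure D1:**
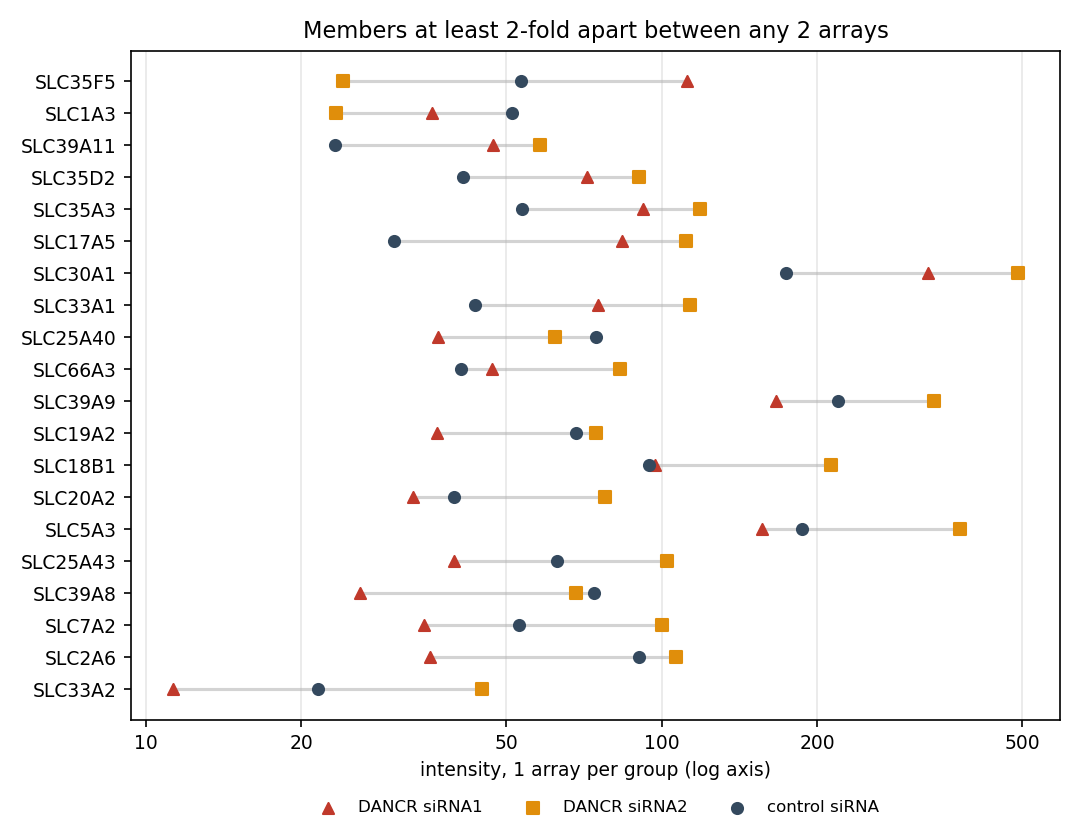
Intensity on a log axis of the 20 members at least 2-fold apart between any 2 arrays, with 1 point per array for DANCR siRNA1, DANCR siRNA2 and the control siRNA. The order follows siRNA1 over siRNA2, with SLC35F5 (112 with siRNA1, 24.1 with siRNA2, 53.4 with the control) at the top and SLC33A2 (11.3 with siRNA1, 44.7 with siRNA2, 21.5 with the control) at the bottom.

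**Figure D2:**
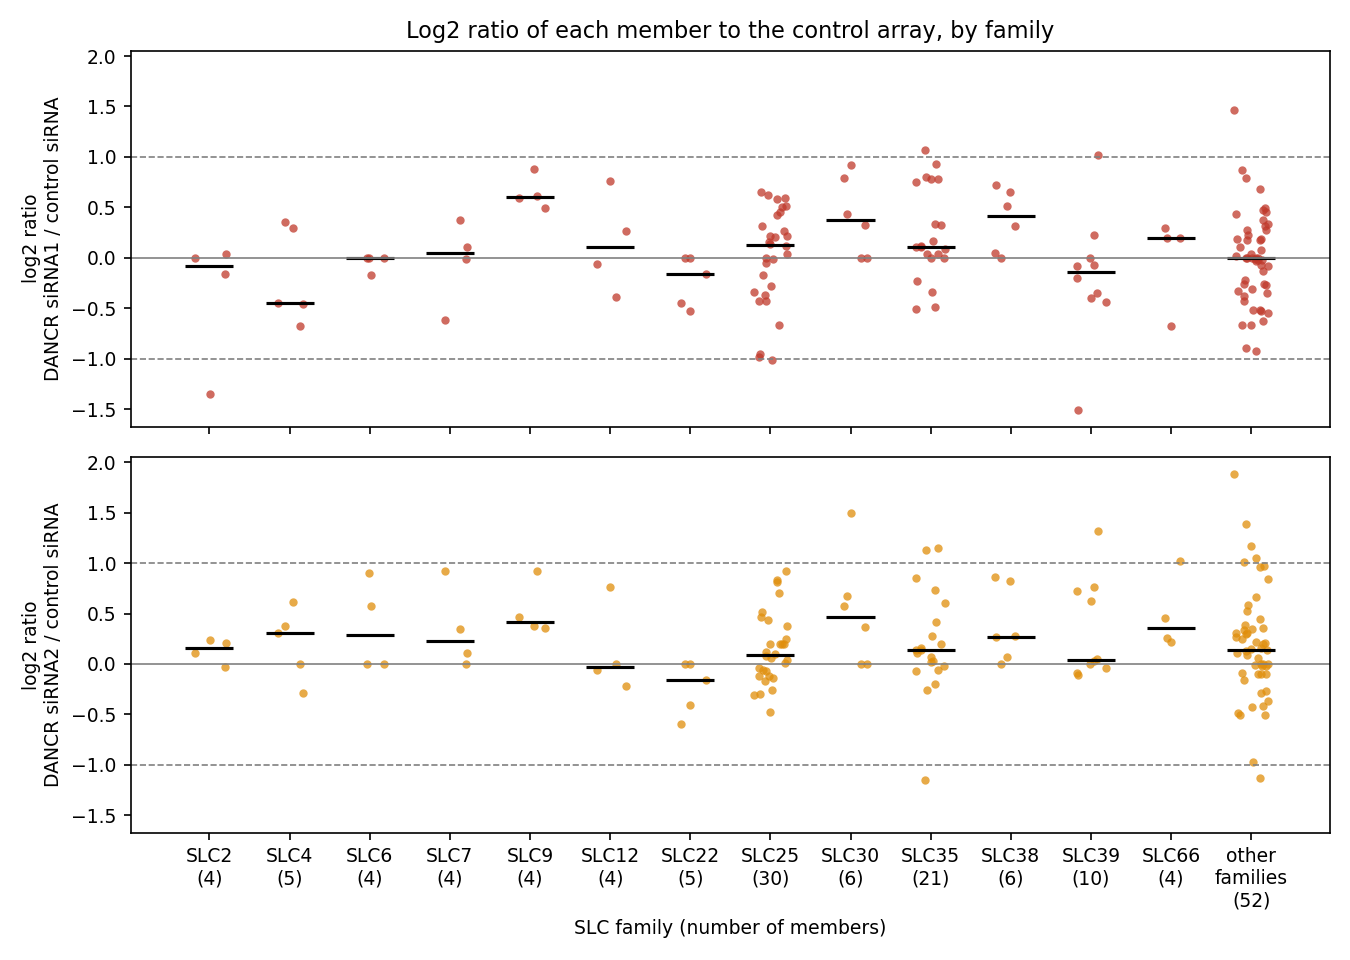
The log2 ratio to the control siRNA of each member, by SLC family, for DANCR siRNA1 (upper panel) and DANCR siRNA2 (lower panel). Points are genes, black bars are family medians and dashed lines mark 2-fold, and the values run between -1.51 (SLC39A8) and 1.47 (SLC17A5) with siRNA1 and between -1.15 (SLC35F5) and 1.88 (SLC17A5) with siRNA2.

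In all, 20 members were at least 2-fold apart in some comparison, and 16 of them had a mean intensity under 100. The noise of dim signals cannot be gauged with 1 array per group. Of the 159 members, 135 were above 30 in all 3 arrays and 24 in only 1 or 2, and for those 24 part of the difference between arrays was fixed by the selection. The control was at or under 30 in 11 of them, and 2 (SLC22A5 and SLC4A8) were above 30 in the control alone. Among the 20, 5 were at or under 30 in at least 1 array (SLC39A11, SLC33A2, SLC35F5, SLC1A3 and SLC39A8), of which SLC33A2 was above 30 in 1 array only. Just inside the threshold lay SLC9A3-OT1, with a highest value of 30.7, SLC4A8 with 31.5 and SLC60A2 with 32.0. Just outside lay SLC25A4 and SLC5A5, both at 29.2, and SLC25A42 at 28.2. Exactly equal values in all 3 arrays occurred in 8 members (5.03%) and in 5.42% of measured genes.

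SLC17A5 had the highest ratio to the control of any member with either siRNA. The gene encodes sialin, which exports sialic acid and other acidic sugars from lysosomes and whose loss causes free sialic acid storage disease. It read 83.6 with siRNA1, 112 with siRNA2 and 30.2 with the control, which is 2.77-fold and 3.69-fold above the control. Its other probe set was dim in every array (13.9 with siRNA1, 17.9 with siRNA2, 13.0 with the control) and gave log2 ratios of 0.10 and 0.46. The other SLC17 member, the vesicular glutamate transporter SLC17A7, read 26.0 with siRNA1, 31.2 with siRNA2 and 34.9 with the control.

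Genes that make, transfer and release sialic acid were under 2-fold. Of 13 measured genes of sialic acid synthesis, transfer and release, none was past 2-fold with either siRNA (all measured genes, 2.41% higher and 2.23% lower with siRNA1, 2.65% and 1.61% with siRNA2), and their median log2 ratio was -0.14 with siRNA1 and -0.05 with siRNA2. The largest mean difference was that of ST3GAL1, a sialyltransferase, with 36.1 for siRNA1, 31.5 for siRNA2 and 52.2 for the control. NEU1, the lysosomal sialidase, read 22.9 with siRNA1, 29.2 with siRNA2 and 34.2 with the control, log2 ratios of -0.58 and -0.23. It was above 30 in the control alone, so its lower readings with both siRNAs were fixed by the selection. CTSA, the protective partner of NEU1, had -0.67 and 0.07. ST3GAL4, another sialyltransferase, had -0.36 and -0.10.

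Lists this short hold few genes past 2-fold at those shares. Of 16 measured genes of lysosomal enzymes and membrane proteins, none was 2-fold higher with either siRNA, and 2 were 2-fold lower with siRNA1. These were GUSB, the lysosomal beta-glucuronidase, at 110 with siRNA1, 161 with siRNA2 and 245 with the control, and the cation channel gene MCOLN1, at 15.4, 58.4 and 46.2 in that order. SCARB2, which carries glucocerebrosidase to lysosomes, had log2 ratios of 0.73 with siRNA1 and 0.83 with siRNA2. The list's median was -0.09 with siRNA1 and 0.08 with siRNA2, and 12 of the 16 were lower with siRNA1 than with siRNA2, 2 higher and 2 equal (median -0.15), where 47.8% of all measured genes were lower. The 15 measured subunits of the V-ATPase, the proton pump that acidifies lysosomes, had medians of 0.04 and 0.10, and only ATP6AP2 was past 2-fold, lower with siRNA2 (430 with siRNA1, 151 with siRNA2, 386 with the control). ATP6V1C1, a subunit of its catalytic sector, had log2 ratios of 0.26 with siRNA1 and 0.90 with siRNA2.

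Among the other carriers of lysosomes and vesicles, SLC18B1 stood out with siRNA2. This vesicular polyamine transporter read 96.9 with siRNA1, 213 with siRNA2 and 94.5 with the control, a log2 ratio of 1.17 with siRNA2 and 0.04 with siRNA1. The siRNA1 and control arrays therefore lay together and the siRNA2 array apart. SLC15A4, a lysosomal histidine and peptide transporter, had log2 ratios of 0.48 with siRNA1 and 0.36 with siRNA2. The lysosomal amino acid carrier SLC36A1 had 0.02 and 0.27, and the lysosomal arginine sensor SLC38A9 had 0.72 and 0.27. The SLC66 family includes the lysosomal exporter of cationic amino acids SLC66A1 (log2 ratios of 0.19 and 0.26). All 4 members were higher with siRNA2 than with the control and all 4 lower with siRNA1 than with siRNA2. Of all measured genes, 53.5% and 47.8% were so. The 4 include SLC66A1LP, a pseudogene and not a carrier, which was under 30 with siRNA1 (26.4). SLC66A1 was nearly equal between the siRNAs, at -0.06, and its second probe set gave 0.05. SLC66A3 was the member past 2-fold, at 46.9 with siRNA1, 82.9 with siRNA2 and 40.8 with the control. With the median over all its probe sets the siRNA2 ratio of SLC66A3 turned to -0.16, from a dim probe set at 19.2 with siRNA2 and 21.5 with the control.

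The zinc exporters of the SLC30 family were at or above the control with either siRNA. Of 6 members, 4 were higher and 2 equal with siRNA1, and again 4 higher and 2 equal with siRNA2, with median log2 ratios of 0.38 and 0.47. SLC30A1, which exports zinc across the plasma membrane and is a textbook zinc-induced gene, read 328 with siRNA1, 490 with siRNA2 and 174 with the control, log2 ratios of 0.92 and 1.49. Its second probe set read 134 with siRNA1, 148 with siRNA2 and 57.7 with the control, log2 ratios of 1.22 and 1.36, and the median over probe sets put SLC30A1 past 2-fold with both siRNAs. Both probe sets thus placed each siRNA array above the control.

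The carriers that load zinc into the secretory pathway differed by less. SLC30A5 had log2 ratios of 0.79 with siRNA1 and 0.57 with siRNA2 (0.06 and 0.24 by a second probe set), and its partner SLC30A6 had 0.43 and 0.67. SLC30A9, a mitochondrial zinc exporter, had 0.32 and 0.36. SLC30A7, a Golgi zinc transporter, read 222 in all 3 arrays, and SLC30A3, known from synaptic vesicles, read 57.2 in all 3.

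Of 10 zinc importers of the SLC39 family, 8 were lower with siRNA1 than with siRNA2 and 2 were equal, with a median log2 ratio of -0.40, where 59.7% of all members and 47.8% of all measured genes were lower. Against the control, 7 were lower, 2 higher and 1 equal with siRNA1 (median -0.14), while 6 were higher, 3 lower and 1 equal with siRNA2 (median 0.04). SLC39A8, which imports zinc and manganese, read 26.0 with siRNA1, 68.2 with siRNA2 and 73.8 with the control, the lowest siRNA1 ratio of any member (log2 -1.51). The median over the SLC39A8 probe sets lay under the floor on low values (10.5) in every array. The ratio of 0.00 by that rule was therefore set by the floor. SLC39A9 read 166 with siRNA1, 338 with siRNA2 and 219 with the control, and SLC39A6, a plasma membrane importer also called LIV-1, read 620, 1180 and 713 in that order. In both genes the siRNA2 array was highest and the siRNA1 array lowest, and the other SLC39A6 probe sets above 30 had that order as well.

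SLC39A11 had the highest ratio to the control of its family with either siRNA. It read 47.0 with siRNA1, 58.2 with siRNA2 and 23.3 with the control, which is 2.02-fold and 2.50-fold higher, from a single probe set. Raising the floor on low values to the 70th percentile left log2 ratios of 0.66 and 0.97 for SLC39A11, so both calls depend on the low control reading. SLC39A7, which releases zinc from the endoplasmic reticulum, had log2 ratios of 0.23 with siRNA1 and 0.76 with siRNA2. SLC39A14, an importer of zinc, iron and manganese, had -0.35 and 0.05, SLC39A13 had -0.43 and -0.04, and SLC39A10 was equal in all 3 arrays at 254. SLC39A1 and SLC39A3, both plasma membrane importers, were within 0.10 of the control with either siRNA.

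**Figure D3:**
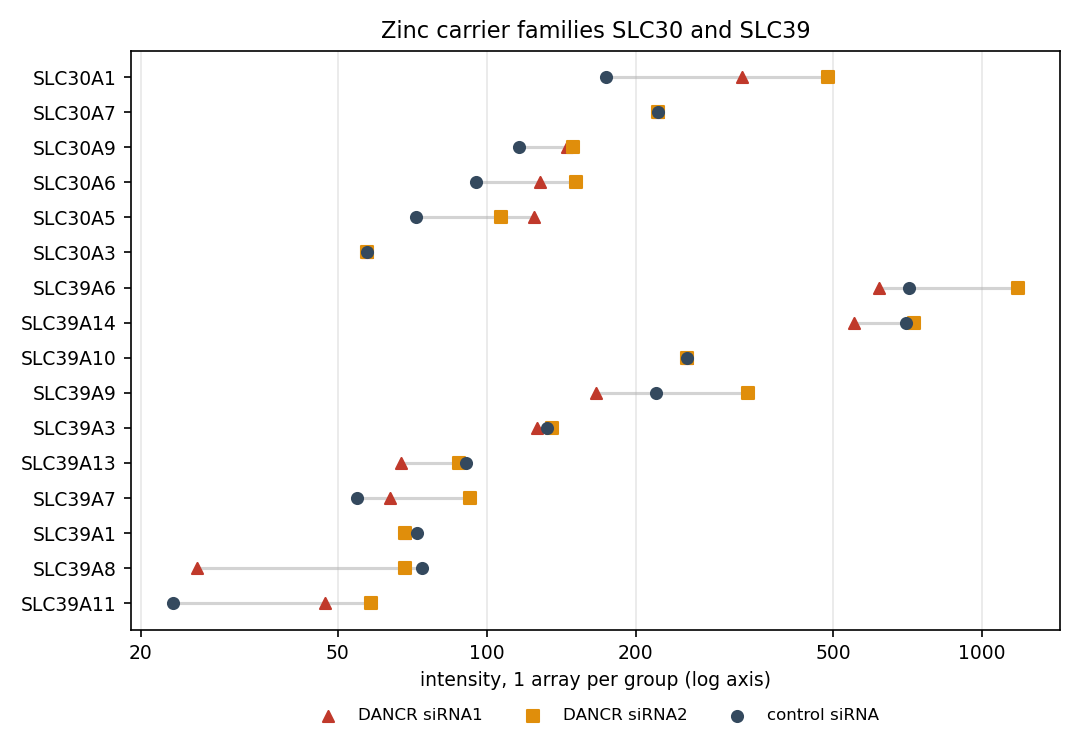
Intensity on a log axis of the 16 zinc carriers, the exporter family SLC30 and the importer family SLC39, with 1 point per array for DANCR siRNA1, DANCR siRNA2 and the control siRNA. SLC30A1 lies above the control with both siRNAs (328 and 490, against 174), while SLC39A8 is low with siRNA1 alone (26.0, against 68.2 with siRNA2 and 73.8 with the control).

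SLC35F5 was the member whose arrays differed most between the siRNAs. Its substrate is not settled, and it is grouped with nucleotide sugar carriers by sequence. It read 112 with siRNA1, 24.1 with siRNA2 and 53.4 with the control, so that siRNA1 gave 4.63 times the siRNA2 reading and the control lay between them. The log2 ratios were 1.07 with siRNA1 and -1.15 with siRNA2. A second probe set kept this order with smaller ratios, 78.6 with siRNA1, 40.5 with siRNA2 and 59.5 with the control (0.40 and -0.55). With the median over probe sets SLC35F5 had 0.53 and -0.98, and with the higher floor -0.84 for siRNA2, so neither 2-fold call held under the first setting and the siRNA2 call did not under the second.

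SLC35A3, SLC35D2 and SLC35A2, carriers of glycan building blocks, were above the control with both siRNAs. SLC35A3, a UDP-N-acetylglucosamine carrier, read 91.9 with siRNA1, 118 with siRNA2 and 53.5 with the control, log2 ratios of 0.78 and 1.14. SLC35D2, which also carries UDP-N-acetylglucosamine, read 71.5 with siRNA1, 90.3 with siRNA2 and 41.2 with the control, log2 ratios of 0.80 and 1.13. Second probe sets had the same direction for both genes, with log2 ratios of 0.36 and 0.71 for SLC35A3 and of 1.13 and 1.21 for SLC35D2. With the median over probe sets the siRNA2 ratios were 0.80 for SLC35A3 and 0.81 for SLC35D2, and without probe sets of the _s_at and _x_at kinds, which can match several transcripts, SLC35A3 had 0.71. SLC35A2, the UDP-galactose carrier, read 97.9 with siRNA1, 105 with siRNA2 and 58.2 with the control. SLC35A5 had log2 ratios of 0.93 with siRNA1 and 0.42 with siRNA2, and the CMP-sialic acid carrier SLC35A1 had 0.32 and 0.19.

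Across all 21 SLC35 members the medians were close to the control, 0.11 with siRNA1 and 0.14 with siRNA2. With siRNA1, 15 were higher, 4 lower and 2 equal, and with siRNA2, 15 were higher and 6 lower. SLC35B3, which brings the sulfate donor PAPS into the Golgi, was high with siRNA1 alone by its brightest probe set, at 206 against 122 with siRNA2 and 120 with the control. Its other probe set, under 30 in every array, was high with siRNA2 instead (13.5 with siRNA1, 29.5 with siRNA2, 13.2 with the control). SLC35E1 and SLC35H1 were highest with siRNA2, with log2 ratios of 0.61 and 0.73, against 0.09 and 0.33 with siRNA1, though a second SLC35H1 probe set gave 0.03 with siRNA2 and 0.00 with siRNA1. Log2 ratios for siRNA1 and siRNA2 were -0.50 and -0.07 in SLC35B4, a carrier of UDP-xylose and UDP-N-acetylglucosamine, -0.49 and -0.19 in SLC35E4, and -0.34 and 0.28 in SLC35A4. The remaining members stayed within 0.30 of the control in both comparisons. They included the endoplasmic reticulum ATP carrier SLC35B1 (0.00 and -0.02), the GDP-fucose carrier SLC35C1 (0.16 and 0.03), and SLC35D1 (0.11 and 0.14), which carries UDP-glucuronic acid. The others were SLC35G2 (-0.23 and 0.10), SLC35F2 (0.04 and -0.26), SLC35E3 (0.12 and 0.15), SLC35F6 (0.11 and 0.14), SLC35D4 (0.03 and -0.06) and SLC35G1 (0.00 and 0.07, with -0.41 and 0.45 by a second probe set).

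**Figure D4:**
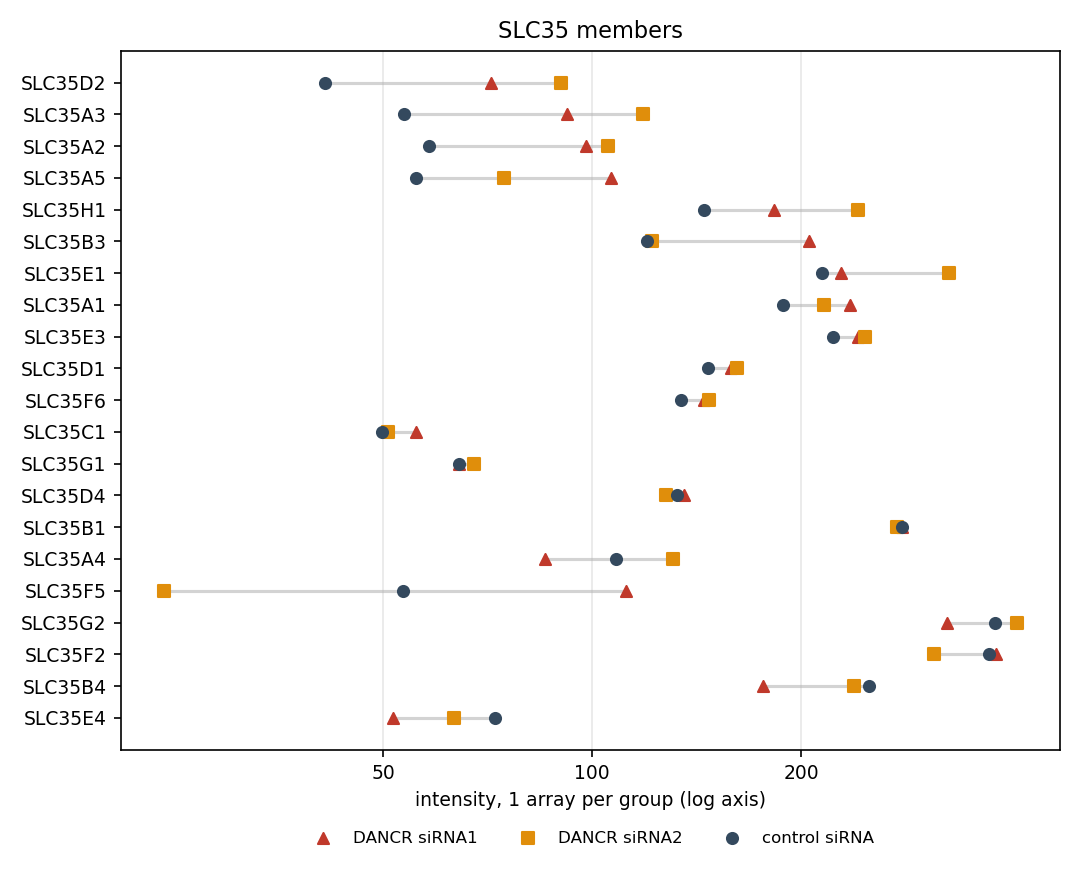
Intensity on a log axis of the 21 SLC35 members, ordered by the mean of their ratios to the control, with 1 point per array for DANCR siRNA1, DANCR siRNA2 and the control siRNA. SLC35A3 and SLC35D2 lie above the control with both siRNAs, and SLC35F5 has the widest spread, 112 with siRNA1 and 24.1 with siRNA2 around 53.4 with the control.

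SLC33A1, which imports acetyl-CoA into the endoplasmic reticulum for the acetylation of proteins and gangliosides, read 75.2 with siRNA1, 113 with siRNA2 and 43.4 with the control. Its log2 ratios were 0.79 and 1.38, and the median over probe sets gave 0.80 with siRNA2. SLC33A2 read 11.3 with siRNA1, 44.7 with siRNA2 and 21.5 with the control, so its siRNA1 value was close to the array median and only its siRNA2 value exceeded 30. With the higher floor its siRNA2 ratio was 0.59.

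The mitochondrial SLC25 family, the largest with 30 members, stayed near the control as a group. Its medians were 0.13 with siRNA1 (17 higher, 12 lower, 1 equal) and 0.09 with siRNA2 (19 higher, 11 lower). The phosphate carrier SLC25A3 read 3399 with siRNA1, 4301 with siRNA2 and 4139 with the control, and the ADP/ATP carrier SLC25A5 read 3092, 2859 and 2676 in that order. Both differed by less than 0.30 on the log2 scale from the control by these probe sets, and a second SLC25A3 probe set read 51.2 with siRNA1, 41.9 with siRNA2 and 79.4 with the control. SLC25A40 was the only family member 2-fold from the control, at 36.9 with siRNA1, 62.2 with siRNA2 and 74.6 with the control, a log2 ratio of -1.02 that became -0.88 with the median over probe sets. Its relative SLC25A39, which with SLC25A40 supplies glutathione to mitochondria, read 64.2 with siRNA1, 116 with siRNA2 and 127 with the control, a log2 ratio of -0.98 with siRNA1 and -0.12 with siRNA2.

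A carrier of mitochondrial iron was also low with siRNA1. SLC25A37, mitoferrin 1, read 145 with siRNA1, 229 with siRNA2 and 281 with the control, log2 ratios of -0.95 and -0.29. All 7 of its other probe sets above 30 had the siRNA1 array below the control, by log2 ratios between -1.05 and -0.19. SLC25A28, mitoferrin 2, had -0.34 and -0.31. SLC25A43 read 39.5 with siRNA1, 102 with siRNA2 and 62.6 with the control.

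Other SLC25 members were above the control. SLC25A46, which acts in outer membrane dynamics, read 346 with siRNA1, 457 with siRNA2 and 242 with the control, but its second probe set gave log2 ratios of -0.69 and 0.04 in place of 0.52 and 0.92. SLC25A44, which imports branched-chain amino acids, read 229 with siRNA1, 272 with siRNA2 and 152 with the control. SLC25A13, an aspartate-glutamate carrier, had log2 ratios of 0.42 with siRNA1 and 0.81 with siRNA2, and its paralog SLC25A12 had 0.59 and 0.01. The glycine carrier SLC25A38 had 0.65 and 0.46, and the ornithine carrier SLC25A15 had 0.32 and 0.52. The NAD carrier SLC25A51 had 0.50 and 0.20 (equal in all arrays by a second probe set). The carnitine carrier SLC25A20 had 0.62 and 0.44. It read 35.8 with siRNA1, 31.5 with siRNA2 and 23.3 with the control, so it was selected only through the siRNA arrays in which it was high. SLC25A24, the ATP-Mg/phosphate carrier, read 284 with siRNA1, 176 with siRNA2 and 245 with the control. SLC25A32, SLC25A33 and SLC25A36, which carry folate or FAD and pyrimidine nucleotides, lay within 0.30 of the control with either siRNA.

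SLC5A3 and SLC2A6 were lower with siRNA1 than with siRNA2. SLC5A3, which takes up myo-inositol and is known as an osmotic stress gene, read 156 with siRNA1, 378 with siRNA2 and 187 with the control. Its second probe set had the same order, 78.5 with siRNA1, 168 with siRNA2 and 92.4 with the control. The siRNA2 ratio of SLC5A3 was close to the 2-fold line, at 1.01, and was 0.96 after quantile normalisation and 0.86 with the median over probe sets. SLC2A6, a glucose transporter of lysosomal membranes, read 35.6 with siRNA1, 107 with siRNA2 and 90.5 with the control. The other glucose and inositol carriers of that family, SLC2A8 and SLC2A13, lay within 0.30 of the control with both siRNAs.

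A phosphate importer had the lowest ratio to the control of the 15 brightest members with either siRNA. SLC20A1, the PiT1 phosphate transporter and retrovirus receptor, read 1264 with siRNA1, 924 with siRNA2 and 1813 with the control, log2 ratios of -0.52 and -0.97. Its second probe set read 159 with siRNA1, 138 with siRNA2 and 192 with the control, the same order with smaller ratios. SLC20A2, the paralog PiT2, was high with siRNA2 instead, at 77.5 against 33.0 with siRNA1 and 39.6 with the control, but the median over its probe sets gave a ratio of 0.00 for siRNA1 over siRNA2. XPR1, the phosphate exporter, read 253 with both siRNAs and 153 with the control.

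**Figure D5:**
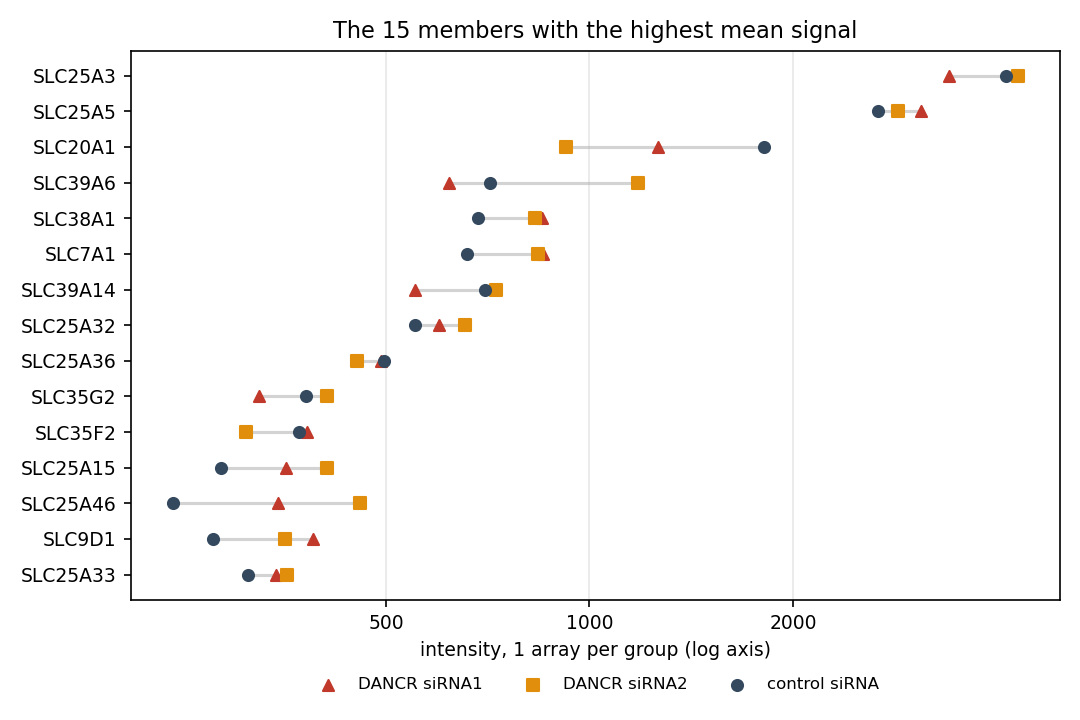
Intensity on a log axis of the 15 members with the highest mean intensity, with 1 point per array for DANCR siRNA1, DANCR siRNA2 and the control siRNA. None is 2-fold from the control, and SLC20A1 (1264 with siRNA1, 924 with siRNA2, 1813 with the control) and SLC25A46 (346, 457 and 242 in that order) have the widest spread along with SLC39A6 (620, 1180 and 713).

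The 6 SLC38 members had medians of 0.41 with siRNA1 (5 higher, 1 equal) and 0.27 with siRNA2 (5 higher, 1 equal). SLC38A1, a glutamine importer, read 851 with siRNA1, 829 with siRNA2 and 685 with the control, and SLC38A6 read 47.4, 53.2 and 30.2 in that order. SLC38A7 was high with siRNA2 alone, at 86.2 against 49.0 with siRNA1 and 47.3 with the control. Further SLC38A7 probe sets above 30 gave log2 ratios of 1.12 and 1.25 with siRNA2 (0.14 and 0.41 with siRNA1). By the median over probe sets it was past 2-fold with siRNA2. SLC38A12 was equal in all arrays. SLC7A1, the main cationic amino acid importer of dividing cells, read 852 with siRNA1, 838 with siRNA2 and 658 with the control, and its second probe set gave nearly the same ratios (0.41 and 0.42, against 0.37 and 0.35). SLC7A2, which carries the same substrates, read 34.5 with siRNA1, 100.01 with siRNA2 and 53.0 with the control. Its other probe sets lay under the floor on low values (10.5) in every array. The ratio of 0.00 between the siRNAs by the median over probe sets was therefore set by the floor.

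SLC1A3, a glutamate transporter, was lower with both siRNAs. It read 35.9 with siRNA1, 23.3 with siRNA2 and 51.2 with the control, log2 ratios of -0.51 and -1.13, and the higher floor left -0.78 for siRNA2. The glutamine carrier SLC1A5 had 0.11 with siRNA1 and -0.51 with siRNA2. In the SLC6 family the taurine carrier SLC6A6 read 179 with siRNA1, 300 with siRNA2 and 201 with the control. SLC6A8, the creatine carrier, read 52.8 with siRNA2 and 28.2 in each of the other arrays, so it was selected only through siRNA2. Its other probe sets, both under 30, put siRNA2 at the control (log2 ratios of 0.01 and 0.00). SLC6A17 and SLC6A3 were equal in all 3.

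Vitamin carriers differed in direction. SLC19A1, the reduced folate carrier, read 236 with siRNA1, 119 with siRNA2 and 168 with the control, so by this probe set the siRNA arrays lay on opposite sides of the control. The 2 other SLC19A1 probe sets above 30 put siRNA1 at the control (log2 ratios of -0.02 and 0.02) and siRNA2 below it (-0.38 and -0.50). After quantile normalisation the log2 ratio of siRNA1 over siRNA2 for SLC19A1 was 1.02, just past 2-fold. SLC19A2, a thiamine carrier, had the reverse order, 36.6 with siRNA1, 74.5 with siRNA2 and 68.2 with the control, and quantile normalisation left -0.97 for siRNA1 over siRNA2. The riboflavin carrier SLC52A2 had log2 ratios of 0.27 and 0.53, the multivitamin carrier SLC5A6 had -0.38 and 0.33, and the folate carrier SLC46A1 had -0.63 and -0.42.

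Of the ion carriers, the 4 members of the SLC9 group, SLC9A3-OT1 included, gave a median of 0.61 for siRNA1 and of 0.42 for siRNA2. In 3 of the 4 the control was at or under 30, so these were selected only through an siRNA array in which they were high, and their direction with at least 1 siRNA was fixed by the selection. SLC9A8, a Golgi sodium/proton exchanger, read 41.9 with siRNA1, 29.4 with siRNA2 and 22.7 with the control. SLC9D1 read 390 with siRNA1, 354 with siRNA2 and 277 with the control. The SLC4 group, carriers of bicarbonate in the main but with SLC4A1AP included, had 5 of 5 members lower with siRNA1 than with siRNA2 (median log2 ratio -0.32). The share lower was 59.7% over all members and 47.8% over all measured genes. SLC4A2 and SLC4A11 were under 30 with siRNA1 (26.8 and 26.2) and were selected through the other arrays, which favoured this direction. SLC4A8 was above 30 in the control alone, at 22.9 with siRNA1, 25.9 with siRNA2 and 31.5 with the control. SLC4A1AP was nearly equal between the siRNAs, at -0.02, and its second probe set gave 0.08. SLC4A7, a sodium bicarbonate cotransporter, read 168 with siRNA1, 209 with siRNA2 and 137 with the control, and the anion exchanger SLC4A2 read 26.8 with siRNA1 and 42.9 in both other arrays.

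Carriers of chloride, magnesium and organic cations stayed under 2-fold. SLC12A2, the sodium-potassium-chloride cotransporter NKCC1, had log2 ratios of 0.27 with siRNA1 and -0.22 with siRNA2. SLC41A3, a mitochondrial magnesium carrier, read 90.5 with siRNA1, 58.8 with siRNA2 and 49.5 with the control, and its second probe set gave 0.30 and 0.00 in place of 0.87 and 0.25. SLC41A1, the magnesium carrier of the plasma membrane, had -0.55 and -0.37. In the SLC22 family, 3 of 5 members were lower than the control and 2 equal in either comparison, with medians of -0.16 with both siRNAs. SLC22A5, the carnitine importer OCTN2, read 28.6 with siRNA1, 25.9 with siRNA2 and 38.9 with the control. It was selected only through the control array, so its lower readings with both siRNAs were fixed by the selection. Its close relative SLC22A4 read 44.9 with siRNA1, 48.9 with siRNA2 and 64.8 with the control.

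The members not named stayed under 2-fold in each of the 3 comparisons. SLC24A1, a sodium/calcium-potassium exchanger, had log2 ratios of 0.68 with siRNA1 and 0.96 with siRNA2. SLC44A1, a choline carrier, had -0.67 and -0.09, and the nucleoside carrier SLC29A1 had -0.33 and -0.49. The copper importer SLC31A1 (-0.08 and 0.00), the sulfate carrier SLC26A2 (-0.02 and -0.02) and the iron importer SLC11A2 (0.27 and -0.10) lay close to the control.

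Symbols were chosen by their letters, so 7 of the 159 members are not carriers: the RNAs SLC12A2-DT and SLC9A3-OT1, the pseudogenes SLC66A1LP and SLC71A3P, and SLC2A4RG, SLC4A1AP and SLC7A6OS, which were named for neighbouring or interacting genes. SLC12A2-DT read 32.5 with both siRNAs and 19.1 with the control, and SLC9A3-OT1 read 24.9 with siRNA1, 30.7 with siRNA2 and 16.2 with the control. SLC2A4RG and SLC7A6OS lay within 0.20 of the control with either siRNA. Whether the probe sets of these RNAs also read overlapping transcripts was not tested.

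Of 31 measured carriers whose symbols do not start with SLC and a digit, none was 2-fold higher with either siRNA, against 2.41% and 2.65% of all measured genes. With siRNA1, 2 were 2-fold lower, against 2.23% of all measured genes: SFXN2, a mitochondrial sideroflexin, at 60.5 with siRNA1, 91.9 with siRNA2 and 143 with the control, and the organic anion carrier SLCO4A1, at 114, 198 and 286 in that order. Their medians were -0.10 with siRNA1 and 0.00 with siRNA2. The lysosomal carrier MFSD1 had log2 ratios of 0.68 and 0.59. Of 14 measured partners and regulators of transporters, such as sodium pump subunits and kinases, ARRDC4 was past 2-fold with siRNA2 (35.5 with siRNA1, 121 with siRNA2, 45.0 with the control). This arrestin-like protein lowers glucose uptake. SGK1, a kinase that raises the activity of many carriers, read 237 with siRNA1, 262 with siRNA2 and 132 with the control. Its log2 ratios were 0.848 with siRNA1 and 0.995 with siRNA2, the latter just short of 2-fold. BSG, the chaperone of monocarboxylate carriers, had log2 ratios of -0.54 and -0.15, and the list's median was -0.24 with siRNA1 and 0.14 with siRNA2.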

How the data were processed

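The values were deposited by the authors as 1 intensity per probe set and array on a linear scale, already brought to a common scale by a method not given in the sources used here; GCOS 1.4 is named in the submitters' processing notes. Of 54675 probe sets, those that GEO's platform annotation pairs with 1 gene were used, with the symbols of that annotation table. Intensities under the 50th percentile of all values (10.5) were raised to it before log2 ratios were taken, and no member was at this floor. With 1 array per group there was no test, so a member was counted when its ratio was at least 2-fold, beside the share of all 9143 measured genes. The number of arrays limits the precision. The members and lists were chosen with earlier results of these data known. Genes named were SLC17A5, SLC35F5, those past 2-fold with both siRNAs, the 8 highest and 8 lowest in each comparison, the 15 brightest, the brightest and extreme members of families with at least 4, all of SLC17 and SLC35, and 3 genes on each side of the threshold; members named beyond these for their substrate were chosen after their values were seen. Of each list, at most 4 members with the largest mean ratio were named. Alternatives were median-centring, quantile normalisation, other floors, other probe set rules, intensity filters and fold thresholds. The procedure was tested on simulated data. Python 3.11.15, numpy 2.4.6, pandas 2.3.3 and matplotlib 3.10.9 were used.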

Additional observations from a re-analysis of the deposited data

Results flagged for a closer look

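SLC35F5 was 2-fold from the control in opposite directions with the siRNAs, higher with siRNA1 and lower with siRNA2. The difference between siRNA1 and siRNA2 was 2.21 on the log2 scale, and with 1 array per group it was not tested.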

How the results depend on the processing

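No paired analysis was possible because each group had 1 array and the labels give no replicate numbers, and for the same reason no array could be left out. Of the gene values under the alternatives, 1664 kept their direction and side of the 2-fold line, 21 dropped under it, 3 passed it and 1 reversed: SLC66A3 with siRNA2, at -0.16 with the median over probe sets. The members' median log2 ratios ranged from -0.01 to 0.04 with siRNA1, from 0.08 to 0.15 with siRNA2 and from -0.13 to -0.03 for siRNA1 over siRNA2. Counts that moved by over 1.5 times are given here beside the reported count, and apart from the fold thresholds, which count more or fewer members by construction, the cause was not tested. Quantile normalisation gave 2 members higher with siRNA1 than siRNA2 (reported 1). A floor at the 70th percentile gave 0 lower with siRNA2 (2) and 1 higher with both siRNAs (2). The median over probe sets gave 1 lower with siRNA1 (3), 6 higher with siRNA2 (10), 1 lower with siRNA2 (2) and 6 lower with siRNA1 than siRNA2 (10). Keeping genes above 60 in at least 1 array gave 1 lower with siRNA2 and 1 higher with both. At 1.5-fold, 23 were higher and 14 lower with siRNA1, 33 higher and 4 lower with siRNA2, 12 higher with both, and 7 higher and 27 lower with siRNA1 than siRNA2. At 3-fold, 0 were higher and 0 lower with siRNA1, 1 higher and 0 lower with siRNA2, 0 higher with both, and 1 lower with siRNA1 than siRNA2. Of the 20 members past 2-fold, 16 had a mean under 100, and how far dim signal limits these calls was not tested.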
